A study of Mus musculus with 30 samples.

Results

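The 9 genes of interferon and cytokine signaling followed here were measured in 30 whole B16 melanoma tumors, namely the type I interferon (IFN-I) receptor chains Ifnar1 and Ifnar2, the Janus kinases Jak1, Jak3 and Tyk2, and the transcription factors Stat3, Stat4, Stat5a and Stat5b. These members were chosen by name, as genes whose Ensembl identifier maps to one of the 9 symbols, from 39676 genes listed in the counts, and all 9 were among the 15926 genes tested, whose mean over the tumors was 10 counts or more. The other JAK and STAT genes were not analysed here. Tumors were taken 8 days after B16-F10 cells, a mouse melanoma line, were placed under the skin of female C57BL/6 mice, typically young adults, with 10 tumors of each of 3 types. All cells carried glycoprotein B (gB) of herpes simplex virus, a fluorescent protein and firefly luciferase (luc), brought in by retrovirus. B16.GFP.gB.luc tumors, called GFP tumors here, also carried the empty vector with green fluorescent protein, B16.IFNα4.gB.luc (IFNα4) tumors the same vector with IFNα4, and B16.IFNα9.gB.luc (IFNα9) tumors that with IFNα9. The transduced cells were sorted populations rather than clones, differences between populations and the effect of the transgene cannot be told apart, and host cells as well as tumor cells contributed RNA.

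IFN-I binds a receptor made of the chains IFNAR1 and IFNAR2, of which IFNAR2 binds most IFN-I subtypes more tightly. TYK2 is bound to IFNAR1 and JAK1 to IFNAR2, and once the chains come together these kinases phosphorylate each other, the receptor and STAT proteins, which then enter the nucleus and switch on interferon-stimulated genes (ISGs) through interferon-stimulated response elements (ISREs) or gamma-activated sites (GAS). The same kinases and STATs serve other cytokines. JAK3 works with the common γ chain of the interleukin (IL)-2 receptor family, mostly in lymphocytes, and STAT4 carries signals of IL-12 and IFN-I in natural killer (NK) and T cells. STAT3 acts below IL-6, IL-10 and related cytokines, and STAT5A and STAT5B act below IL-2, growth hormone, prolactin and other cytokines.

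Tumors had totals of 14598517 to 19788383 counts. Ifna4 had 81 to 188 counts in every IFNα4 tumor and 0 in all others, and Ifna9 had 55 to 148 counts in every IFNα9 tumor and 0 in all others, so each IFN-I–secreting tumor carried the transgene of its label. For GFP tumors these counts show only that both interferon transgenes were absent. The melanocyte genes Tyr, Tyrp1 and Mitf, the 3 of 7 melanoma markers in the counts, summed to between 2160 and 22850 CPM (read counts scaled to a common library size) in every tumor. Tumor 7 of the GFP type stood apart, with the highest sum of these genes, the lowest sum of leukocyte markers (131 CPM, against at most 479 CPM in the rest of its type and at least 519 CPM in IFN-I–secreting tumors) and the lowest scaling factor, 0.768. Against GFP tumors, all 10 tested ISGs of a list of 12 rose in both IFN-I–secreting types, with a median log2 fold change of 3.57 in IFNα4 and 2.83 in IFNα9 tumors, a list chosen with earlier results of these tumors known and thus not independent of them.

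RefSeq promoters on GRCm38.p6, the 250 bases before a transcription start, were found for all 9 members at 12 starts, and both strands were searched for GAAA, any 2 bases and GAAA (the core of an ISRE) and for TTCNNNGAA (the core of a GAS, which reads the same on both strands). The ISRE letters occurred in 2.98% and the GAS letters in 7.02% of 32851 promoters of that length. Among the members, the ISRE letters were found before 1 start, the inner of the pair of Stat4 starts, and the GAS letters before the Ifnar2 start. The stretches below are those of the 4 members whose levels differed most clearly from GFP tumors, or the part of each that no annotated exon covers, written 5′ to 3′ on the gene's strand, with the matches in capitals. The Stat4 stretch (chr1:52007990-52008239, plus strand) lies inside the gene, outside its exons, and its match began 97 bases before the inner start.
Stat4: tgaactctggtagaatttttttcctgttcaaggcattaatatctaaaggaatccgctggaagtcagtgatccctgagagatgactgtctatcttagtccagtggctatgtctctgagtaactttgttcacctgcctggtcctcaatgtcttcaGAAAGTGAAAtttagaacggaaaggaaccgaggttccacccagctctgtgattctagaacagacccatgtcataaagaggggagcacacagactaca
The Ifnar2 stretch (chr16:91372533-91372782, plus strand) held its match 214 bases before the start.
Ifnar2: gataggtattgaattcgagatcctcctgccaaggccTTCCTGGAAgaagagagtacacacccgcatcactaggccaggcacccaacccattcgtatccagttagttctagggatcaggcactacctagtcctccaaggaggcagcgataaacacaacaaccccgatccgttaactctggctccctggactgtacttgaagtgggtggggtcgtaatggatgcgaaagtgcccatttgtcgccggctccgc
The Jak1 stretch (chr4:101265283-101265473, minus strand) and the Tyk2 stretch (chr9:21131276-21131525, minus strand) held neither.
Jak1: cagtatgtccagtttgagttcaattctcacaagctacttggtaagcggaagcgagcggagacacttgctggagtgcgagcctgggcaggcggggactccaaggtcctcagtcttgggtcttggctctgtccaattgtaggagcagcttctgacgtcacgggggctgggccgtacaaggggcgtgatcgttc
Tyk2: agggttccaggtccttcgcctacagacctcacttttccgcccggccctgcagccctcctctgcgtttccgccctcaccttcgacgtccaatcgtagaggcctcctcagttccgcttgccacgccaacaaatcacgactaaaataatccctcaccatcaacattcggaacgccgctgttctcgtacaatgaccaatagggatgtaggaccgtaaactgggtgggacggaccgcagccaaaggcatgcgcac
A match is a description of letters and not a site that was measured, and gene counts do not show which Stat4 start was used.

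Compared with GFP tumors, the set leaned upward in both IFN-I–secreting types. In IFNα4 tumors, Ifnar2, Jak1, Jak3, Tyk2, Stat4 and Stat5b rose, 6 of 9 members, none fell, and the median log2 fold change of the 9 was 0.53, against a median of 0.01 over all genes. In that comparison 65.4% of all genes tested were called at an adjusted p under 0.05 (quasi-likelihood test of edgeR, Benjamini-Hochberg), 31.3% upward and 34.1% downward. That balance turned with the scale, from 4977 higher and 5435 lower genes to 5413 and 4758 with library totals. In IFNα9 tumors, Ifnar2, Jak1, Tyk2, Stat4 and, at the threshold and not in all alternatives, Stat5a rose, 5 of 9 members, none fell, and the median was 0.33 against −0.00 over all genes, where 55.7% of all genes were called, 26.9% upward and 28.9% downward. Ifnar2, Jak1, Tyk2 and Stat4 rose in both types, as did 22.8% of all genes. Over all genes 4281 were higher and 4595 lower in IFNα9 tumors, and with library totals as the scale 5052 and 3608. In 3 members (Jak1, Tyk2 and Stat4) every IFNα4 tumor lay above every GFP tumor, as in 8.5% of all genes (10% lay wholly below, 18.5% in either direction). In 1 member (Tyk2) every IFNα9 tumor did, as in 4.44% of all genes (3.35% below, 7.79% in either direction). Both comparisons share the GFP tumors. In bulk RNA a higher level may come from more cells of a type or from more RNA per cell, which cannot be told apart here. Leukocyte markers moved with the members: all 4 (Ptprc, Cd53, Coro1a and Laptm5) rose in both types, and their sum ran from 131 to 479 CPM in GFP, from 755 to 1560 CPM in IFNα4 and from 519 to 1029 CPM in IFNα9 tumors. The 3 melanocyte genes moved the other way and fell in both types, with a median log2 fold change of −1.24 in IFNα4 and −0.97 in IFNα9 tumors, and their sum ran from 7224 to 22850 CPM in GFP, from 2160 to 3635 CPM in IFNα4 and from 3371 to 8928 CPM in IFNα9 tumors. The part of either in the members' levels was not tested.

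**Figure D1:**
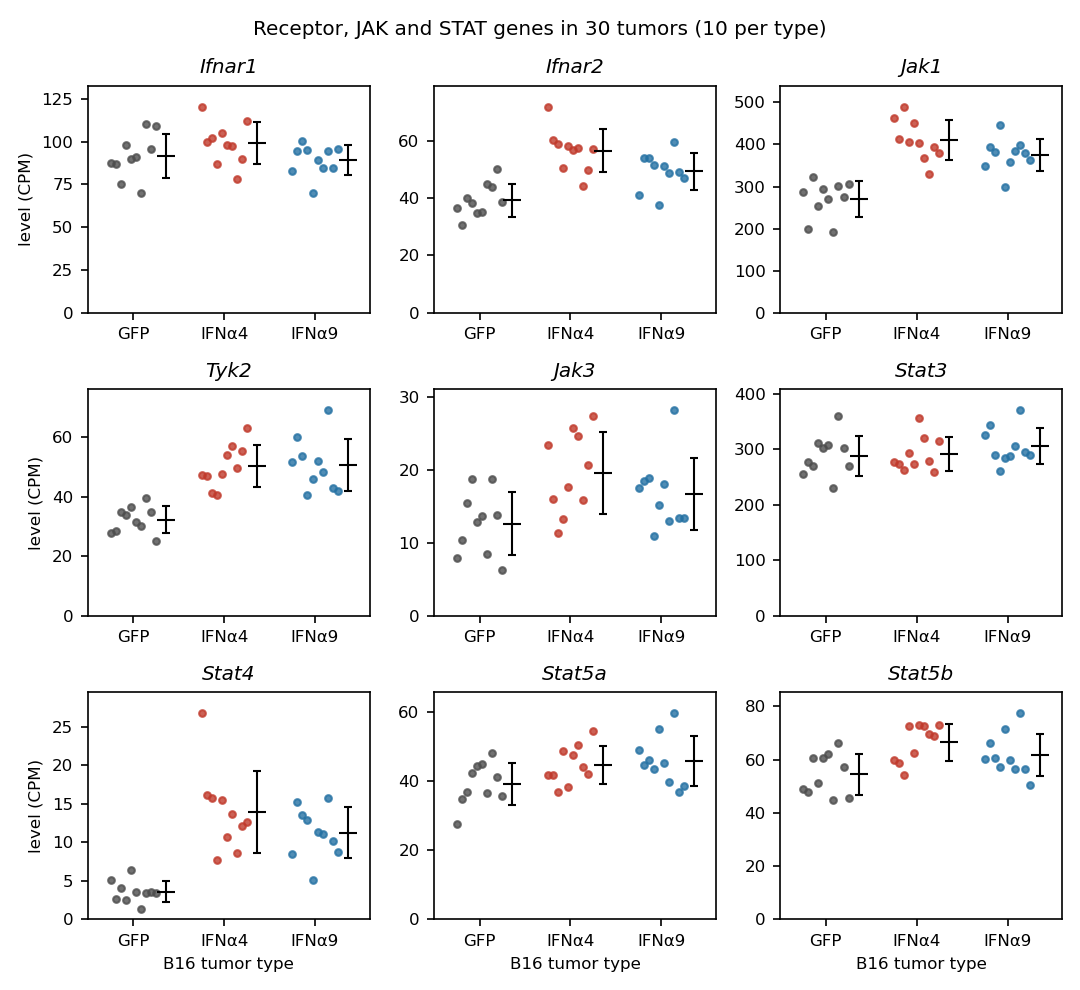
Level of each member in CPM (y axis, from 0, its own scale in each panel) in the 10 tumors of each type (x axis), with 1 point per tumor and the mean ± SD in black beside it. Tyk2 lay higher in all tumors of both IFN-I–secreting types (40.5 CPM or more) than in any GFP tumor (39.4 CPM or less), while Ifnar1 and Stat3 covered much the same range in all types.

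**Figure D2:**
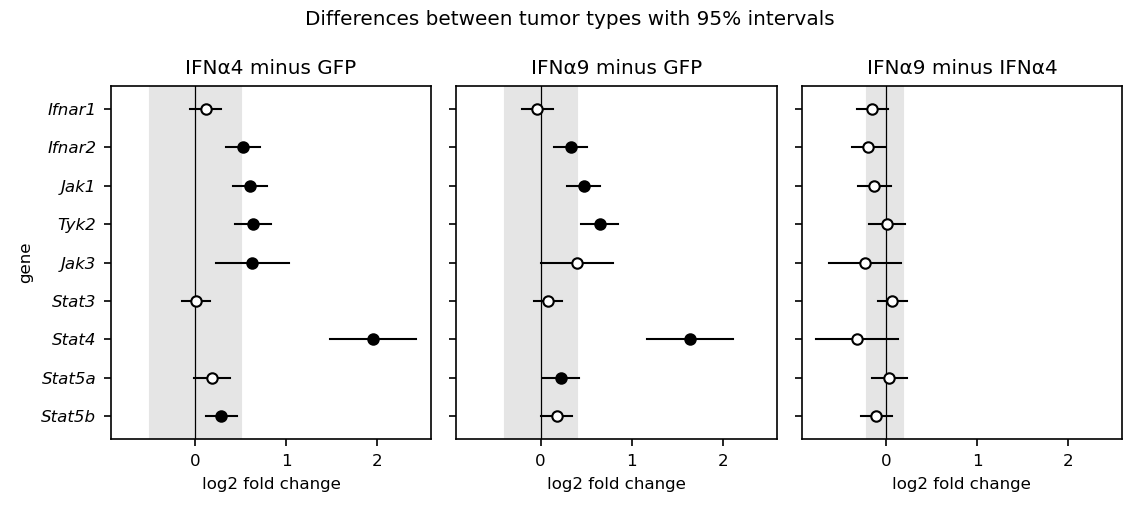
Log2 fold change (x axis) of each member (y axis) in the 3 comparisons, with its 95% interval from the edgeR fit. Filled points had an adjusted p under 0.05, and the grey band spans the middle 50% of all genes tested; Stat4 lay far to the right in both comparisons with GFP tumors, at 1.95 and 1.64, and no point was filled between IFNα9 and IFNα4 tumors.

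The receptor chains differed in their response. Ifnar1 (ENSMUSG00000022967.12, chromosome 16, 91485238 to 91507441 of GRCm38, plus strand) encodes the chain that holds TYK2. Its level in GFP tumors had a lowest, median and highest value of 69.8, 90.6 and 110 CPM. In IFNα4 tumors these were 78.0, 98.9 and 121 CPM, and in IFNα9 tumors 70.2, 92.0 and 101 CPM. The types overlapped almost fully, and no difference passed the test: the log2 fold change was 0.12 in IFNα4 tumors (95% interval −0.05 to 0.28, adjusted p = 0.220) and −0.03 in IFNα9 tumors (−0.20 to 0.13, adjusted p = 0.739). With library totals as the scale the latter was 0.06.

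Ifnar2 (ENSMUSG00000022971.18, chromosome 16, 91372783 to 91405589, plus strand), the chain that holds JAK1, had a lowest, median and highest level of 30.7, 38.4 and 50.1 CPM in GFP tumors. The values were 44.2, 57.5 and 72.1 CPM in IFNα4 and 37.6, 50.1 and 59.9 CPM in IFNα9 tumors. Of the IFNα4 tumors 8 of 10 lay above every GFP tumor, and of the IFNα9 tumors 5 of 10. Ifnar2 was 1.44-fold higher in IFNα4 tumors (95% interval 1.27 to 1.64, log2 fold change 0.53, standard error 0.09, adjusted p = 8.57e-06). It was 1.26-fold higher in IFNα9 tumors (1.11 to 1.43, log2 fold change 0.33, standard error 0.09, adjusted p = 0.00243).

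Because both chains are counted in the same library, their ratio is free of library scaling. The log2 ratio of Ifnar2 to Ifnar1, taken per length of exons, was −0.38 ± 0.29 (SD, n = 10) in GFP tumors, 0.03 ± 0.07 in IFNα4 tumors and −0.02 ± 0.11 in IFNα9 tumors. It was above 0 in 1 GFP tumor, 7 IFNα4 tumors and 5 IFNα9 tumors. The lengths are those of all annotated exons rather than of the transcripts expressed, so where 0 lies depends on the annotation. The ratio rose by 0.41 in IFNα4 tumors (two-sided permutation test with 100000 resamples, adjusted p = 0.00636 over 6 ratio tests) and by 0.36 in IFNα9 tumors (same test, adjusted p = 0.00732), but differed by −0.05 between the latter types (adjusted p = 0.297, permutation test). GFP tumors were spread widely: in 7 the ratio ran from −0.66 to −0.43, and tumors 3, 7 and 9 lay at −0.07, 0.21 and −0.10. Without GFP tumor 7 the differences were 0.47 and 0.42 (permutation test, adjusted p = 3.9e-04 and 7.79e-04). Of the 50-base stretches of Ifnar2 transcripts, 7.89% also occur in Gm21970, which had 0 counts in every tumor.

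**Figure D3:**
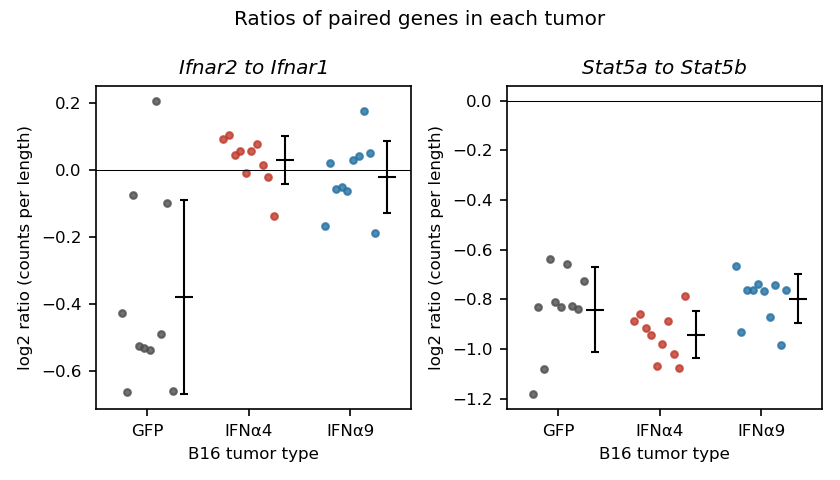
Log2 ratio (y axis, counts per length of exons) of Ifnar2 to Ifnar1 and of Stat5a to Stat5b in each tumor (points) by type (x axis), with the mean ± SD in black. The Ifnar2 to Ifnar1 ratio sat near 0 in both IFN-I–secreting types and between −0.66 and 0.21 in GFP tumors, and the Stat5a to Stat5b ratio was below 0 in all 30 tumors.

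Both kinases of the IFN-I receptor rose with either subtype. Jak1 (ENSMUSG00000028530.14, chromosome 4, 101152367 to 101265282, minus strand), which also serves IFN-γ, IL-6 and γ-chain cytokines, had a lowest, median and highest level of 192, 281 and 322 CPM in GFP tumors. It had 329, 405 and 490 CPM in IFNα4 and 298, 381 and 446 CPM in IFNα9 tumors. All 10 IFNα4 tumors and 9 of 10 IFNα9 tumors were above every GFP tumor; IFNα9 tumor 5 was the exception. Jak1 was 1.52-fold higher in IFNα4 tumors (95% interval 1.34 to 1.72, log2 fold change 0.60, adjusted p = 1.08e-06) and 1.39-fold higher in IFNα9 tumors (1.22 to 1.58, log2 fold change 0.47, adjusted p = 5.7e-05). None of its 50-base stretches occurs in another gene.

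Tyk2 (ENSMUSG00000032175.11, chromosome 9, 21104068 to 21131243, minus strand), which also serves IL-12 and IL-10 receptors, had a lowest, median and highest level of 25.2, 32.7 and 39.4 CPM in GFP tumors. The values were 40.5, 48.4 and 62.8 CPM in IFNα4 and 40.6, 50.0 and 69.0 CPM in IFNα9 tumors, with no overlap with GFP tumors in either type. Tyk2 rose 1.56-fold in IFNα4 (95% interval 1.35 to 1.79, log2 fold change 0.64, adjusted p = 1.84e-06) and 1.57-fold in IFNα9 tumors (1.36 to 1.80, log2 fold change 0.65, adjusted p = 2.9e-06). Among its 50-base stretches 7.52% occur elsewhere, mostly in the antisense gene 1700084C06Rik, which had 0 counts throughout.

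Jak3 (ENSMUSG00000031805.17, chromosome 8, 71676296 to 71690575, plus strand), the lymphoid kinase, was lower and more variable. Its lowest, median and highest level was 6.32, 13.3 and 18.8 CPM in GFP, 11.3, 19.2 and 27.4 CPM in IFNα4 and 10.9, 16.4 and 28.3 CPM in IFNα9 tumors. The types overlapped, with 5 of 10 IFNα4 and 2 of 10 IFNα9 tumors above every GFP tumor. It was 1.55-fold higher in IFNα4 tumors (95% interval 1.18 to 2.03, log2 fold change 0.63, standard error 0.19, adjusted p = 0.00556). In IFNα9 tumors the log2 fold change was 0.40 (95% interval 0.00 to 0.79, adjusted p = 0.0794), which did not pass the test, but did without GFP tumor 4, GFP tumor 8 or IFNα9 tumor 4 (adjusted p = 0.0388 at the lowest).

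Stat4 (ENSMUSG00000062939.11, chromosome 1, 51987148 to 52107189, plus strand) had the largest change of the 9 in both comparisons with GFP tumors. It was scarce in GFP tumors, with 14 to 115 counts and a lowest, median and highest level of 1.25, 3.44 and 6.33 CPM. In IFNα4 tumors these were 7.66, 13.1 and 26.8 CPM, and in IFNα9 tumors 5.05, 11.2 and 15.8 CPM. All IFNα4 tumors and all IFNα9 tumors but tumor 5 exceeded the highest GFP tumor. Stat4 was 3.87-fold higher in IFNα4 tumors (95% interval 2.79 to 5.38, log2 fold change 1.95, standard error 0.23, adjusted p = 2.34e-08), a larger log2 fold change than that of 96.6% of genes tested. In IFNα9 tumors it was 3.12-fold higher (2.25 to 4.32, log2 fold change 1.64, standard error 0.23, adjusted p = 9.92e-07). The lowest GFP value was that of tumor 7, and in fits that left out 1 tumor each the log2 fold changes stayed between 1.80 and 2.08 and between 1.55 and 1.77. Of its 50-base stretches 21.7% are shared with Gm28177, which had 10 counts or fewer in any tumor.

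Stat4 moved with lymphocyte markers, and less closely with those of other leukocytes. All 5 NK cell markers tested (Ncr1, Klrb1c, Klre1, Klrd1 and Eomes) rose in both types, and their sum ran from 3.57 to 15.3 CPM in GFP, from 55.0 to 171 CPM in IFNα4 and from 31.8 to 114 CPM in IFNα9 tumors. All 6 T cell markers with counts rose in IFNα4 and 5 of 6 in IFNα9 tumors, and their sum ran from 3.57 to 60.1, from 66.9 to 149 and from 27.6 to 93.6 CPM. Within types, that is after the mean of its type was taken from each tumor, log2 Stat4 correlated with the mean log2 level of NK cell markers at r = 0.86 and with that of T cell markers at r = 0.78 over 30 tumors that share library and scaling. For leukocyte markers in general r was 0.81, for dendritic cell markers 0.70, for macrophage and monocyte markers 0.69 and for neutrophil markers 0.60. Without GFP tumor 7 these were 0.74, 0.57, 0.55 and 0.46, against 0.84 for NK cell and 0.68 for T cell markers. The gene most like Stat4 in this sense was the marker Klrd1, which encodes CD94, a chain of NK cell receptors (r = 0.95), followed by Inpp1 (r = 0.93) and Klrk1, which encodes the activating receptor NKG2D (r = 0.92). Of the B cell markers, only 1 of 4 passed the filter, and their sum was at most 3.84 CPM. The part of lymphocytes or other leukocytes in the Stat4 difference was not tested.

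**Figure D4:**
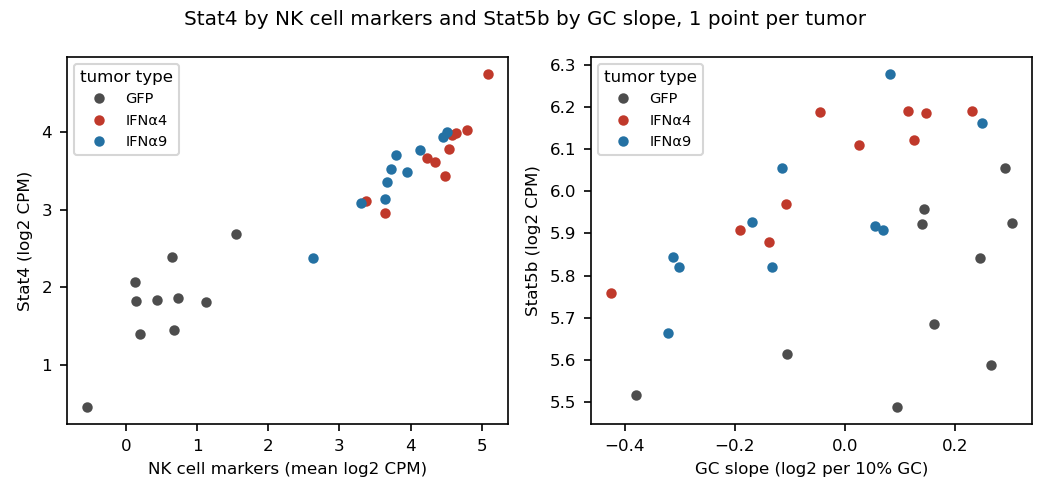
Left, log2 CPM of Stat4 (y axis) against the mean log2 CPM of 5 NK cell markers (x axis); right, log2 CPM of Stat5b against the GC slope of the tumor in log2 per 10% GC. Each point is 1 of 30 tumors, colored by type; Stat4 and the NK cell markers were both lowest in GFP tumors, and the median GC slope was 0.15 in GFP, −0.01 in IFNα4 and −0.12 in IFNα9 tumors.

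Stat3 (ENSMUSG00000004040.16, chromosome 11, 100885098 to 100939540, minus strand) did not differ by more than the spread between tumors. Its lowest, median and highest level was 230, 289 and 359 CPM in GFP, 259, 278 and 357 CPM in IFNα4 and 261, 293 and 371 CPM in IFNα9 tumors. The log2 fold change was 0.01 in IFNα4 (95% interval −0.14 to 0.17, adjusted p = 0.888) and 0.08 in IFNα9 tumors (−0.07 to 0.24, adjusted p = 0.359). With library totals as the scale the latter was 0.18.

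The neighboring genes Stat5a (ENSMUSG00000004043.14, chromosome 11, 100859351 to 100885169, plus strand) and Stat5b (ENSMUSG00000020919.11, chromosome 11, 100780731 to 100850724, minus strand) encode closely related factors, and both showed small differences. Stat5b had a lowest, median and highest level of 44.7, 54.3 and 66.4 CPM in GFP, 54.1, 69.2 and 72.9 CPM in IFNα4 and 50.6, 60.1 and 77.5 CPM in IFNα9 tumors. It was 1.22-fold higher in IFNα4 tumors (95% interval 1.08 to 1.37, log2 fold change 0.29, adjusted p = 0.00367), where 6 of 10 tumors lay above every GFP tumor. In IFNα9 tumors its log2 fold change was 0.18 (adjusted p = 0.0705), and it passed the test without any one of GFP tumors 6 and 8 and IFNα9 tumors 4, 9 and 10 (adjusted p = 0.0313 at the lowest).

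Stat5a had a lowest, median and highest level of 27.7, 39.0 and 48.2 CPM in GFP, 36.9, 43.1 and 54.5 CPM in IFNα4 and 36.7, 45.1 and 59.7 CPM in IFNα9 tumors, with 3 tumors of each IFN-I–secreting type above all GFP tumors. Its log2 fold change was 0.19 in IFNα4 tumors (adjusted p = 0.088, and 0.0438 without GFP tumor 8). In IFNα9 tumors it was 0.22 (95% interval 0.03 to 0.42, adjusted p = 0.0472), a call at the threshold. It was lost in 18 of 30 fits that left out 1 tumor, namely GFP tumors 1, 2, 3, 7, 9 and 10, IFNα4 tumors 1, 2, 4, 6, 8 and 9 and IFNα9 tumors 1, 2, 3, 5, 6 and 8, with adjusted p between 0.0185 and 0.115 over all 30. It was lost as well without a filter on low counts (edgeR, adjusted p = 0.0685), with only the 20 tumors compared (0.0544) and with the replicate block (0.0514).

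Stat5b exceeded Stat5a per length of all annotated exons in every tumor. The log2 ratio of Stat5a to Stat5b was −0.84 ± 0.17 (SD, n = 10) in GFP, −0.94 ± 0.09 in IFNα4 and −0.80 ± 0.10 in IFNα9 tumors. It was 0.14 higher in IFNα9 than in IFNα4 tumors (two-sided permutation test, adjusted p = 0.00988), with 7 of 10 IFNα9 tumors above every IFNα4 tumor. Against GFP tumors it differed by −0.10 in IFNα4 (permutation test, adjusted p = 0.188, and −0.14 with adjusted p = 0.0269 without GFP tumor 1) and by 0.04 in IFNα9 tumors (permutation test, adjusted p = 0.497). Of the 50-base stretches, 8.21% of those of Stat5a occur in Stat5b and 11.0% of those of Stat5b in Stat5a, and exons of Stat3 and Stat5a overlap on opposite strands over 72 bases, so the counting could have split or moved some of their reads.

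IFNα9 and IFNα4 tumors were also compared with each other. None of the 9 members was called (edgeR's quasi-likelihood test), where 17.8% of all genes were (10.5% higher, 7.25% lower, or 1679 and 1154 genes, which became 2030 and 916 with library totals), and DESeq2 called none either. With only the 20 tumors compared in the fit, 4338 of 15926 genes were called, and again none of the members. In no member did these types lie apart without overlap, as 2.83% of all genes did (2.08% higher, 0.741% lower). At an unadjusted p under 0.05 there was 1 member in either test, where 30.6% of all genes passed in edgeR and 31.4% in DESeq2. In edgeR it was Ifnar2 with a log2 fold change of −0.20 (95% interval −0.38 to −0.01, adjusted p = 0.131). The median of the 9 was −0.13, against −0.01 over all genes, and 6 of the 9 estimates were below 0. Stat4 differed by −0.31 (95% interval −0.76 to 0.14, adjusted p = 0.358), Jak3 by −0.23 (−0.62 to 0.16, adjusted p = 0.450), Jak1 by −0.13 (−0.31 to 0.05, adjusted p = 0.351) and Tyk2 by 0.01 (−0.19 to 0.21, adjusted p = 0.959). These intervals leave room for differences of such sizes and do not show that the types were alike.

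Per length of exons, the order of the members was largely kept. This length covers all annotated exons of a gene, so levels set against those of another gene depend on the annotation. In GFP tumors the mean level in CPM per kilobase was 37.4 for Jak1, 30.3 for Stat3, 15.4 for Ifnar1, 11.8 for Ifnar2, 9.85 for Stat5b, 5.50 for Stat5a, 4.70 for Tyk2, 2.37 for Jak3 and 0.922 for Stat4. The ranges of neighbors in this order overlapped except between Stat3 and Ifnar1, Stat5b and Stat5a, and Tyk2 and Jak3. In IFNα4 tumors Jak1 stood clear of Stat3, at 56.7 against 30.6 CPM per kilobase, with no overlap between their ranges. Ifnar2 (17.0) there matched Ifnar1 (16.7), Tyk2 (7.31) passed Stat5a (6.26) in 9 of 10 tumors, and Stat4 (3.60) came level with Jak3 (3.67). IFNα9 tumors had the same order but for Ifnar1 and Ifnar2 (14.9), of which Ifnar1 was higher in 5 of 10 tumors.

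Within types, the members fell into a pair of sets that the tumor types do not define. Ifnar1, Ifnar2, Jak1 and Stat4 varied together, with r between 0.44 and 0.75 over 30 tumors, and Stat3, Stat5a, Stat5b, Tyk2 and Jak3 varied together, with r between 0.66 and 0.88. Between the sets r ran from −0.15 to 0.37. With leukocyte markers, r was 0.81 for Stat4, 0.76 for Jak1, 0.62 for Ifnar1 and 0.43 for Ifnar2, and it ran from 0.19 (Stat5a) to 0.50 (Jak3) in the other set. The value for Ifnar2 rested on GFP tumor 7, without which it was 0.82, while Ifnar1 was then at 0.50, Jak1 at 0.68 and Stat4 at 0.74. The genes most like Jak1 were the interferon-inducible Ifi205 (r = 0.92), the leukocyte gene Cd53 (r = 0.91) and Ifi211 (r = 0.91), and those most like Ifnar2 were Arhgdib (r = 0.87), Arpc2 (r = 0.85) and Atxn7l1 (r = 0.80). Ifnar1 was most like Synj1 (r = 0.91), Arhgap30 (r = 0.87) and Gm15448 (r = 0.86).

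The members were also compared with a measure of base composition. For each tumor the slope of log2 level on the GC share of a gene's longest transcript was taken over 15905 genes, and it ran from −0.38 to 0.30 log2 units per 10% GC in GFP tumors (median 0.15), from −0.43 to 0.23 in IFNα4 tumors (median −0.01) and from −0.32 to 0.25 in IFNα9 tumors (median −0.12). Within types this slope correlated with Stat5b at r = 0.73, Jak3 at 0.69, Stat5a at 0.67, Tyk2 at 0.65 and Stat3 at 0.49, and with the first set at −0.48 (Jak1) to −0.21 (Ifnar2). The longest transcripts of Jak3 (61.0% GC), Stat5a (57.9%) and Tyk2 (57.0%) were richer in GC than those of 98.1%, 91.7% and 88.6% of genes tested, while Stat5b (52.7%) and Stat3 (52.5%), of the same set, lay near Ifnar2 (50.4%), Ifnar1 (50.1%) and Jak1 (47.6%), and Stat4 had 45.4%. Stat5b also followed skeletal muscle markers at r = 0.71, a list of 4 of which 2 fell in IFNα9 tumors and none was called in IFNα4 tumors. In the first set r with these markers was −0.50 for Ifnar1, −0.35 for Ifnar2, 0.02 for Jak1 and −0.16 for Stat4. Among IFNα4 tumors alone it was −0.83, −0.86, −0.75 and −0.94. The values were −0.71, −0.40, −0.37 and −0.42 among IFNα9 tumors, and −0.16, 0.04, 0.62 and 0.53 among GFP tumors. Jak3 was most like Zyx (r = 0.93), Camta2 (r = 0.93) and Cic (r = 0.91). With T cell markers its r was 0.32 and with NK cell markers 0.34. Tyk2 was most like Map4k1, Grk2 and Jak3 itself (r = 0.88 each), Stat3 like Chpf2 (r = 0.82), Plaur (r = 0.79) and Nub1 (r = 0.78), Stat5a like Map7d1, Scaf1 and Por (r = 0.82 each), and Stat5b like Pacsin3 (r = 0.89), Trak1 (r = 0.87) and Mvp (r = 0.86).

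**Figure D5:**
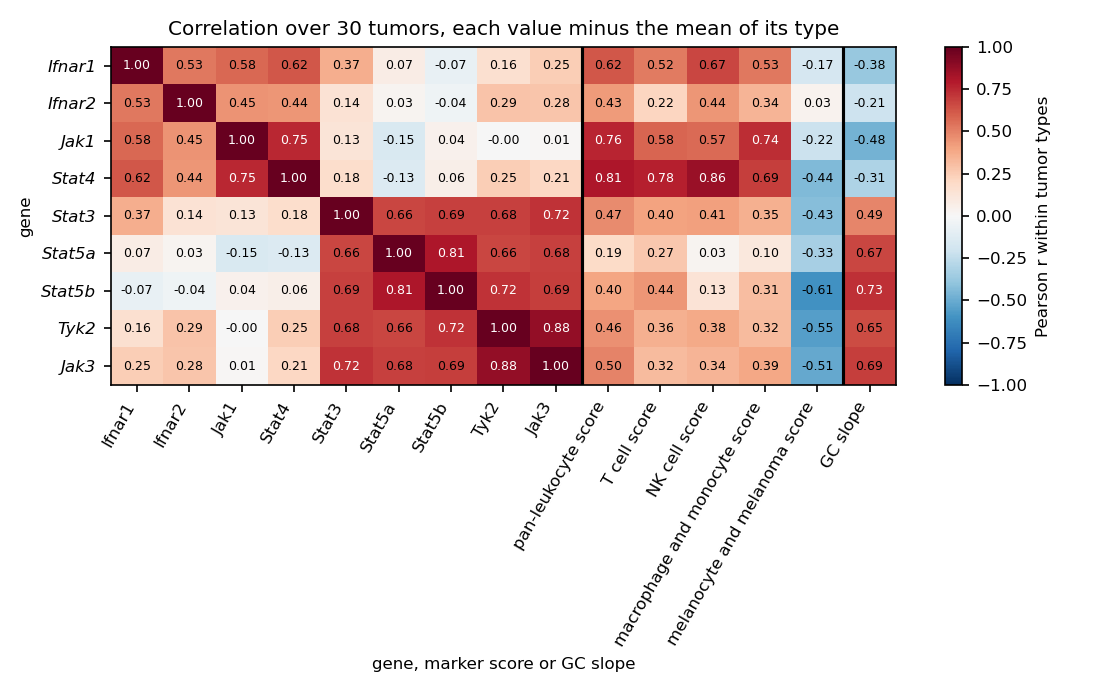
Pearson correlation within types over 30 tumors (color and printed value) of each member (rows) with every member, with 5 marker scores (mean log2 CPM) and with the GC slope (columns, divided by black lines). Ifnar1, Ifnar2, Jak1 and Stat4 form one red block and Stat3, Stat5a, Stat5b, Tyk2 and Jak3 another, and the GC slope is blue for the first and red for the second.

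The median slope differed between types, but its ranges overlapped widely and the difference was not tested. The fit was repeated with each tumor's slope as a covariate, a step chosen after the data were seen. It raised the differences of the second set. In IFNα9 tumors the log2 fold change of Jak3 became 0.76 (standard error 0.17, adjusted p = 3.11e-04), that of Stat5b 0.31 (adjusted p = 2.04e-04) and that of Stat5a 0.36 (adjusted p = 3.72e-04), and in IFNα4 tumors that of Stat5a became 0.28 (adjusted p = 0.00176) and that of Jak3 0.88 (adjusted p = 1.47e-05). Tyk2 reached 0.74 and 0.80. In this fit 7 of 9 members were called in each comparison with GFP tumors, all but Ifnar1 and Stat3, where 69.1% of all genes were called in IFNα4 and 55.7% in IFNα9 tumors, and none between IFNα9 and IFNα4 tumors, where 22.2% of all genes were. Stat4 stood at 1.81 and 1.46, Jak1 at 0.53 and 0.38, and Ifnar2 at 0.50 and 0.29, somewhat smaller than before. Stat3 in IFNα9 tumors went from 0.08 to 0.17 (95% interval 0.02 to 0.31, adjusted p = 0.0518). Whether the slope reflects the libraries or the cells in them was not tested.

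Genes around the members were taken from lists by their role, and values below are log2 fold changes from the edgeR fit. The counts called stand against 31.3% of all genes higher and 34.1% lower in IFNα4 tumors, 26.9% and 28.9% in IFNα9 tumors, and 10.5% and 7.25% in IFNα9 against IFNα4 tumors. Of the other interferon receptor chains, Ifngr1, which binds IFN-γ, rose in IFNα4 tumors by 0.56 on the log2 scale (adjusted p = 4.41e-04), and 2 of 4 rose and 1 fell there. In IFNα9 tumors none rose and 2 of 4 fell, the lowest being Il10rb, shared by the IL-10 and IFN-λ receptors, at −0.60 (adjusted p = 1.99e-05). Ifngr2 was the 1 chain that differed between IFNα9 and IFNα4 tumors, at −0.30 (adjusted p = 3.13e-04). Among inhibitors of JAK-STAT signaling, 7 of 15 tested genes rose and 1 fell in IFNα4 tumors and 6 rose and 2 fell in IFNα9 tumors, so that 8 of 15 were called in each, no larger a share than the 65.4% and 55.7% of all genes. Usp18, an ISG whose product blocks IFNAR2, led them at 3.72 and 2.98 (adjusted p = 2.61e-16 and 5.06e-14) and was lower in IFNα9 than in IFNα4 tumors, at −0.74 (adjusted p = 0.00212). Pias4 fell by 0.51 on the log2 scale in each type (adjusted p = 0.0036 and 0.00506). In the comparison of IFNα9 with IFNα4 tumors 4 inhibitors fell and none rose.

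Receptors and ligands that use these kinases were counted next. Of the lymphoid cytokine receptors, 7 of 8 tested rose in IFNα4 and 6 of 8 in IFNα9 tumors, with medians of 1.55 and 1.19 and none lower. Il12rb1, which signals through TYK2, rose by 2.19 and 3.22 (adjusted p = 1.37e-07 and 2.49e-10) and was the one receptor of this list that differed between IFNα9 and IFNα4 tumors, by 1.03 (adjusted p = 0.00604). Among gp130 and IL-10 receptors 5 of 7 rose in each type, with Il10ra at 2.43 and 1.64, and 1 and 2 fell, with Cntfr at −1.93 and −1.41. Between IFNα9 and IFNα4 tumors 1 of this list rose, Cntfr by 0.53, and 3 fell, Il10ra by −0.79 the most. Of receptors that act through STAT5, 4 of 5 rose and 1 fell in IFNα4 tumors and 3 rose and 1 fell in IFNα9 tumors, with Il5ra, which had a mean of 0.247 CPM and a lowest value of 0 in GFP tumors, at 2.24 and 1.67 and Epor at −1.36 and −0.91. Of the cytokine ligands 9 of 11 rose in IFNα4 and 5 of 11 in IFNα9 tumors, with Il27 at 3.22 and 2.32 from a mean of 0.235 CPM in GFP tumors, where the lowest value was 0, so that the size of its change is uncertain. Of the ligands 5 were lower with IFNα9 than with IFNα4, Il11 the most at −1.16 (adjusted p = 0.00207).

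Known targets of the STATs were counted in the same way. Of 9 STAT3 targets, 5 rose and 1 fell in IFNα4 tumors and 3 rose and 3 fell in IFNα9 tumors, with Icam1 at 1.28 and 1.02 and Cebpd at −0.60 and −0.72. The 6 of 9 called in each type were close to the share of all genes. Against IFNα4 tumors 4 of them were lower in IFNα9 tumors and none higher, Fos the most at −0.73 (adjusted p = 0.00142). Of 6 STAT4 targets tested, 4 rose in IFNα4 and 3 in IFNα9 tumors, among them Tbx21, the T-bet gene of NK and T helper 1 cells, at 4.35 and 3.43 from a mean of 0.427 CPM in GFP tumors, so that the size of its change is uncertain. Tbx21 differed by −0.92 between IFNα9 and IFNα4 tumors (adjusted p = 0.0126) as 1 of 2 that were lower. Of 8 STAT5 targets 7 rose in IFNα4 and 3 in IFNα9 tumors, with Il2ra at 1.88 and 2.11, and Socs2 alone was lower in IFNα9 than in IFNα4 tumors, by −0.59 (adjusted p = 0.0377). Of the 10 ISGs 8 were lower with IFNα9 than with IFNα4, Mx1 the most at −1.22 (adjusted p = 7e-05), and none was higher. Several of these genes stand in more than one list, and all of them were measured in the same whole tumors as the members.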

How the data were processed

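Per the labels, RNA came from 30 tumors, 10 per type, and the paper's methods say that whole tumors were used. The adjusted p-values set each difference against the spread between these tumors, not between transduced cell populations. The authors made stranded mRNA libraries, sequenced 50-base single-end reads, aligned them with HISAT2 2.0.4 after FastQC 0.11.3, and deposited raw read counts per gene from SummarizeOverlaps. The submitters' processing notes name mm10, while the methods name another build; the annotation, strand setting and treatment of multiply aligned reads are not given in the sources used here. Of 39676 identifiers, 39495 were found in GENCODE M21 (GRCm38), which gave exon lengths, transcript GC and coordinates, and 36719 had the same version (Ifnar1 did not). The 9080 genes without any count and those with a mean under 10 counts were left out.

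Counts were scaled by TMM (factors 0.768 to 1.10) and fitted over all 30 tumors with edgeR 4.0.16 (quasi-likelihood test, R 4.3.3), with Benjamini-Hochberg adjustment over 15926 genes and a threshold of 0.05. The script was tested on simulated data. CPM used TMM-scaled totals. Log2 ratios were taken after adding 2 counts and tested two-sided with 100000 resamples in SciPy 1.17.1. Alternatives were DESeq2 1.42.0, its size factors, library totals, other filters, only the 20 tumors compared, a replicate block, leaving out each tumor and, chosen after seeing the data, GC slope as a covariate. Named genes were the members, the called gene with the highest and lowest log2 fold change of each pathway list per comparison, and the 3 genes most correlated with each member. Members and lists were chosen with earlier results of these data known. Tumors of 1 type differed by a chi-square of at least 14.1 per gene, so none was counted as a duplicate.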

Additional observations from a re-analysis of the deposited data

Results flagged for a closer look

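In a search of 63 groups of 10 values (members, ratios and marker lists by type), 4 held a highest or lowest tumor whose gap to the next, as a share of the group's range, was above Dixon's critical value for 10 tumors, where chance gives about 1 in 20, or 3.15. The log2 ratio of Ifnar2 to Ifnar1 was lowest in IFNα4 tumor 10, at −0.14, with the next tumor at −0.02. In GFP tumor 7 the mean log2 CPM of leukocyte markers was 4.81, with the next tumor at 5.71, and that of T cell markers was −0.85, with the next at 0.57. The mean log2 CPM of skeletal muscle markers was highest in IFNα9 tumor 5, at 11.1, with the next at 9.61. None of the 9 members' own log2 levels was set apart in this way in any type. The CPM scale was not part of this search, and on it some tumors stood further off. Stat4 was at 26.8 CPM in IFNα4 tumor 1, with the next at 16.1 and the lowest at 7.66 CPM. Jak3 was at 28.3 CPM in IFNα9 tumor 8, with the next at 18.9 and the lowest at 10.9 CPM.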

How the results depend on the processing

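Under the alternatives, 970 of the members' log2 fold changes kept their direction and their side of the threshold, 20 changed sign, 15 passed the threshold newly and 21 no longer passed it. All sign changes were of small, uncalled values. Stat3 in IFNα4 against GFP tumors was −0.0070 with filterByExpr and −0.023 to 0.053 when 1 tumor was left out. Ifnar1 in IFNα9 against GFP tumors was 0.055 with library totals and −0.064 to 0.0086 with 1 tumor left out. Between IFNα9 and IFNα4 tumors, Tyk2 was −0.0015 with DESeq2 size factors, −0.0016 with DESeq2 and −0.050 to 0.065 with 1 tumor left out, and Stat5a −0.011 to 0.092. The log2 ratio of Stat5a to Stat5b in IFNα4 against GFP tumors ran from −0.14 to −0.077 with 1 tumor left out. With library totals, Stat5a in IFNα4 tumors and Jak3 and Stat5b in IFNα9 tumors also passed against GFP (edgeR, adjusted p = 0.0246, 0.0330 and 0.0154). Between IFNα9 and IFNα4 tumors, 4338 genes were called when only those 20 tumors were fitted, against 2833. The replicate block called 10249, 8626 and 2535 genes against 10412, 8876 and 2833, and of the members it lost Stat5a in IFNα9 against GFP tumors (edgeR, adjusted p = 0.0514). Tumors with 1 number did not deviate together (correlations from −0.27 to 0.30, own number highest for 1, 1 and 0 of 10), so they share only a number. Of the 9 members, counts limit Stat4 the most, with as few as 14 in a GFP tumor.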
